A study of Homo sapiens with 6 samples.

Results

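The COUP-TF and GATA genes are transcription factor families that set and hold cell identity in mesenchyme, blood vessel and endoderm. The genes described here are the COUP-TF genes NR2F1, NR2F2 and NR2F6, the long non-coding RNA NR2F1-AS1 that is read from the strand opposite NR2F1, and the GATA genes GATA2, GATA3, GATA4 and GATA6. They were taken by symbol from the deposited table, 8 of its 32750 genes, and 7 of them were among the 15372 genes with enough counts to be tested. GATA3 was not tested. The 8 genes were chosen by family and on the log2 fold changes of this same comparison, whose results were known, so their differences between the groups are given as descriptions and without a p-value.

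Poly(A) RNA was sequenced from LX-2, an established human cell line made from stellate cells, the liver pericytes that turn into collagen-producing myofibroblasts in fibrosis. Both groups were LX-2 cells under transient transfection. In the control group, labelled wild type, 3 cultures received a non-targeting siRNA. In the other group, labelled as a transient ATP6AP1 knockdown, 3 cultures received, by their label, an siRNA against ATP6AP1, an accessory subunit of the proton pump that acidifies lysosomes. The submitters call the cultures of a group independent biological replicates. The cells are titled as activated, but no source used here gives an activating treatment, the dose or sequence of the siRNA or the time after transfection. A single line was used, and replicates measure the spread between its cultures.

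COUP-TFs are orphan members of the nuclear receptor family. They bind, often as dimers or with retinoid X receptors, to repeats of the letters AGGTCA, and they act as repressors at many genes and as activators at others. NR2F2 (COUP-TFII) holds venous identity in endothelium and is widely expressed in mesenchyme, including the stellate cells of the liver. NR2F1 (COUP-TFI) is best known from neural development, and NR2F6 (EAR2) from the restraint of cytokine genes in lymphocytes. GATA factors bind the letters GATA through a pair of zinc fingers and work with cofactors of the FOG family (ZFPM1 and ZFPM2). GATA2 and GATA3 are known above all from blood cells, and GATA4 and GATA6 from heart, gut and liver. In mice, loss of Gata4 from the mesenchyme that gives rise to stellate cells is followed by fibrosis of the fetal liver.

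The 6 libraries held from 15644464 to 19656533 counts. ATP6AP1 went against its label: it stood at 121 ± 7.26 CPM (normalised counts scaled to the library's effective size; SD, n = 3) in the control libraries and at 143 ± 3.01 in the others, a log2 fold change of 0.25 with an adjusted p of 0.00425 in edgeR's quasi-likelihood test. With each library's trend on gene span removed its log2 fold change was 0.149 and did not pass. The second group is therefore called the libraries labelled ATP6AP1 siRNA. Of the 15372 genes tested, 53.3% passed an adjusted p of 0.05, with 26.7% raised and 26.6% lowered, and 59.5% had groups that did not overlap in CPM. Scaling by library size alone moved the split from 4110 raised and 4083 lowered to 5618 and 2733, and the median log2 fold change of all genes from -0.00433 to 0.133. Of 12 stellate cell markers 11 were in the table and 10 were tested. None of these rose and 9 fell, among them VIM, SPARC, COL1A2 and COL3A1, and the sum of the markers went from 6090 to 6585 CPM in the control libraries to 3516 to 3928 in those labelled ATP6AP1 siRNA. VIM, an intermediate filament gene, alone stood at 4679 ± 182 CPM in the controls. DES, the desmin gene, was near 0 at 0.414 ± 0.178 and 0.197 ± 0.0981 CPM. Named here after their values were seen, PDGFRA, RGS5 and PDGFRB were low too, averaging 0.744, 4.74 and 8.96 CPM in the controls. The collagen gene COL1A1 averaged 1013 CPM there. Markers of other liver cells were low throughout. In the control and the labelled libraries their sums ran from 15.0 to 17.1 and from 12 to 14.5 CPM for 8 endothelial genes, mostly TEK, from 9.83 to 11.6 and from 8.33 to 9.02 for 6 hepatocyte genes, mostly SERPINA1, from 4.27 to 5.12 and from 3.22 to 4.73 for 7 leukocyte genes, mostly CD14, and from 10.3 to 12.6 and from 10.1 to 11.5 for 6 biliary genes, led by KRT7. Of the genes that define these cells, ALB averaged 0 and 0.116 CPM, PECAM1 0.512 and 0.197, and PTPRC 0.483 and 0.316.

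The COUP-TF genes NR2F2 and NR2F1 and the antisense RNA NR2F1-AS1 were lower under the ATP6AP1 siRNA label, and the GATA genes went in different directions. NR2F2 was the most abundant of the 8 and had the largest log2 fold change of the 7 tested. GATA6 and the scarce GATA3 were higher, GATA4 was lower, and GATA2 and NR2F6 had groups that overlapped. Of the 7 tested genes, 6 were past the test, GATA6 raised and NR2F1, NR2F1-AS1, NR2F2, NR2F6 and GATA4 lowered, against 53.3% of all genes. Since the choice of genes rests on this comparison, nothing is read from that count. The groups did not overlap for 5 of the 7, against 59.5% of all genes. The median absolute log2 fold change was 0.69 over the 7 genes and 0.318 over all genes tested. In bulk RNA, fewer cells that express a gene and less of its RNA per cell cannot be told apart.

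**Figure D1:**
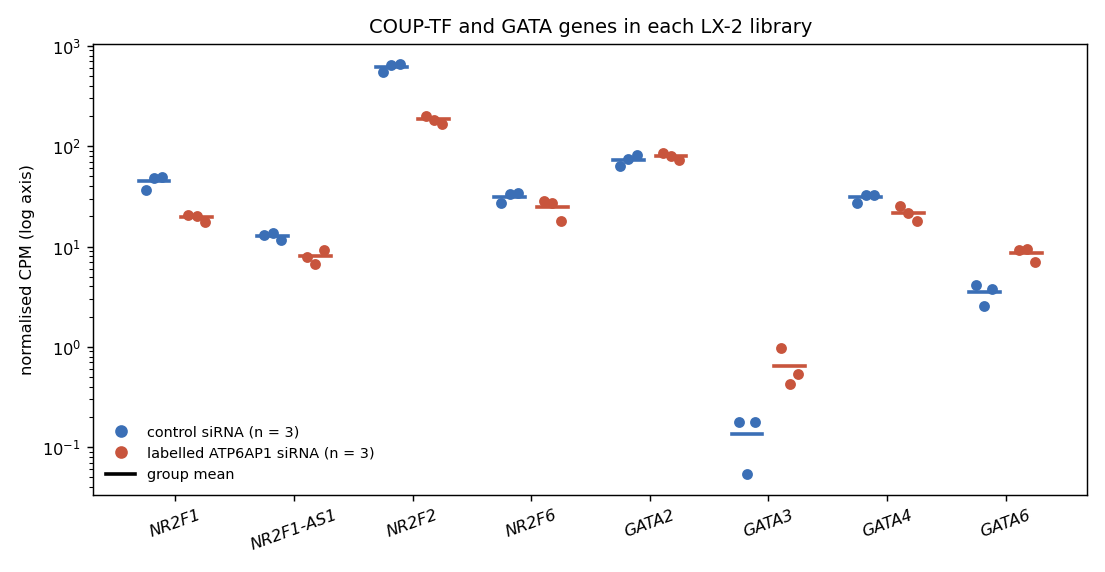
Normalised CPM (log axis) of the 8 genes in each library, blue for control siRNA and red for the label ATP6AP1 siRNA, with a bar at each group mean (n = 3). NR2F2 stands highest, from 553 to 653 CPM in the controls and from 168 to 202 in the other group, while the GATA2 and NR2F6 groups overlap and GATA3 lies below 1 CPM.

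NR2F2 (ENSG00000185551; GRCh38 chromosome 15, 96325938 to 96340263, plus strand) stood at 553, 641 and 653 CPM in control libraries 1 to 3 and at 202, 184 and 168 CPM in libraries 1 to 3 labelled ATP6AP1 siRNA. Every control library was thus far above every library of the other group, and the spread within a group was small beside the gap. The means were 616 ± 54.4 and 185 ± 17.4 CPM (SD, n = 3), a log2 fold change of -1.74 with an SE of 0.0809 from the fit, or 3.34-fold lower. Its counts ran from 9394 to 11935 in the controls and from 3044 to 3338 in the others, so counting error was small beside the difference. No 50-base window of its exons occurred in the transcripts of another gene.

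NR2F1 (ENSG00000175745; chromosome 5, 93583222 to 93594611, plus strand) held 37.0, 47.8 and 49.4 CPM in the control libraries and 20.5, 20.3 and 17.6 CPM in those labelled ATP6AP1 siRNA. The groups did not overlap, and the first control library lay below the other two. The means of 44.7 ± 6.74 and 19.5 ± 1.65 CPM differed by -1.20 on the log2 scale (SE 0.110), or 2.3-fold lower. NR2F1 and NR2F2, the close paralogs of the family, therefore went the same way, and the ratio of NR2F2 to NR2F1 per kb of exon went from 9.38 ± 0.645 to 6.42 ± 0.269.

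NR2F1-AS1 (ENSG00000237187; chromosome 5, 93360779 to 93585649, minus strand) spans 225 kb and shares 158 exon bases with NR2F1, 3.61% of that gene's exons. It held 13.1, 13.7 and 11.7 CPM in the controls and 7.94, 6.76 and 9.18 CPM under the ATP6AP1 siRNA label. These groups did not overlap either, although the third labelled library, the lowest for NR2F1, was the highest for its antisense RNA. The means were 12.8 ± 0.992 and 7.96 ± 1.21 CPM, a log2 fold change of -0.69 (SE 0.128), or 1.61-fold lower. With each library's trend on gene span removed the value shrank to -0.395. No source used here gives the strand setting of the counting, so reads in the shared exon bases cannot be assigned to either strand.

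NR2F6 (ENSG00000160113; chromosome 19, 17231883 to 17245919, minus strand) held 27.4, 33.3 and 33.8 CPM in the controls and 28.5, 27.3 and 17.9 CPM under the ATP6AP1 siRNA label. The groups overlapped: labelled libraries 1 and 2 were near control library 1, and only the third lay clearly below. The means were 31.5 ± 3.58 and 24.6 ± 5.79 CPM and the log2 fold change was -0.36 (SE 0.144). Without the third labelled library it was -0.175 and no longer past the test. The call was lost as well without control library 2 or 3, with a filter of 5 CPM in 3 libraries and with library size alone. It was also lost with the replicate number as a block. As the gene was chosen on this comparison, nothing is read from these calls. NR2F6 is the richest of the 8 in G and C, at 71.2% of the bases of its longest transcript, above 99.9% of the genes tested. Within each group, some libraries deviated from the group mean in relation to the GC content of the genes, with Spearman correlations over 15047 genes of -0.306, 0.0573 and 0.267 in control libraries 1 to 3 and 0.55, 0.00763 and -0.531 in labelled libraries 1 to 3. With the trend on GC content and transcript length removed, the log2 fold change of NR2F6 was -0.435. With the gene span trend removed it was -0.498, and the call was kept in both fits.

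The sequence around some start sites of these genes was searched for the letters that the families bind. From RefSeq (GRCh38.p14), 18 promoter windows of 6 of the 8 genes were searched. Each ran from 250 bases before to 50 bases after a start site. No window of NR2F6 or GATA4 was searched, so nothing is said of their starts. GATAA, searched on both strands, occurred in 2 of the 18 windows and in 22.7% of all 35116 windows of the table, and AGGTCA, searched on both strands, in 1 of the 18 and in 13.8% of all. The window at the annotated 5′ end of NR2F1 had a GATAA on the strand opposite the gene, which reads TTATC on the printed strand and begins 138 bases before the start. The window at the 5′ end of GATA2 had an AGGTCA that begins 240 bases before the start. The second window of each of these genes, at another start, had neither, and the remaining GATAA was in a window of GATA3. Both windows of NR2F2, with starts at 96332565 and 96333765, lay within its own exons and had neither motif. The annotated 5′ end of NR2F2, at 96325938, was thus not searched. The 250 bases before the start are shown for the 5′ ends of NR2F1 and GATA2 and for GATA6, the factor that was higher, in which neither motif was found. They lie at chr5:93582972-93583221 on the plus strand, chr3:128493202-128493451 on the minus strand and chr18:22169339-22169588 on the plus strand, and capitals mark the matches.
NR2F1: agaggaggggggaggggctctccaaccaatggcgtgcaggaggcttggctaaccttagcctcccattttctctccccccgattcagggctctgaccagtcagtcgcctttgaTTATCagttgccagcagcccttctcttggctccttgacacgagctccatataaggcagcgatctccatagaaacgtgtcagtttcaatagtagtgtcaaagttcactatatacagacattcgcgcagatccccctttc
GATA2: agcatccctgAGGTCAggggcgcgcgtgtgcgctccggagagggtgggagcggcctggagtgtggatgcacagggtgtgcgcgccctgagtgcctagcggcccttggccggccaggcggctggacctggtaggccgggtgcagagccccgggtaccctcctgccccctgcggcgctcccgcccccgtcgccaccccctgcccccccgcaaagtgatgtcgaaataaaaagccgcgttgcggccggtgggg
GATA6: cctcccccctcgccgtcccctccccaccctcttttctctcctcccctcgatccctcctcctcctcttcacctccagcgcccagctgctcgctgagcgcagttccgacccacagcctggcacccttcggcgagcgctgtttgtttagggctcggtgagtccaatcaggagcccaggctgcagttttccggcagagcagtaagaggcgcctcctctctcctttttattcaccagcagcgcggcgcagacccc
A match is an occurrence of these letters and says nothing of binding, and their absence is limited to the window searched.

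GATA2 (ENSG00000179348; chromosome 3, 128479427 to 128493201, minus strand) is a factor of blood stem cells and endothelium and was the most abundant GATA gene of these cells. It held 63.8, 73.9 and 82.3 CPM in the control libraries and 85.3, 79.0 and 72.6 CPM in those labelled ATP6AP1 siRNA. The ranges overlapped, and the spread within each group was larger than the difference of the means, 73.3 ± 9.25 against 79.0 ± 6.38 CPM. The log2 fold change was 0.11 (SE 0.0901), with a 95% interval of the fit from -0.09 to 0.30. Its sign depended on the processing: it was -0.026 with the trend on gene span removed and 0.244 with library size alone, a scaling under which the median gene stood at 0.133.

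GATA4 (ENSG00000136574; chromosome 8, 11676959 to 11760002, plus strand), the factor whose loss in mouse stellate precursors is followed by fibrosis, held 27.2, 32.8 and 32.6 CPM in the controls. The libraries labelled ATP6AP1 siRNA held 25.4, 21.7 and 18 CPM. The groups did not overlap, but the gap between the lowest control and the highest labelled library was small. The means of 30.9 ± 3.19 and 21.7 ± 3.68 CPM gave a log2 fold change of -0.51 (SE 0.117), or 1.43-fold lower, and it was -0.615 with the GC trend removed.

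GATA6 (ENSG00000141448; chromosome 18, 22169589 to 22202528, plus strand), the paralog of GATA4 with a part in endoderm and heart, went the other way. It held 4.18, 2.58 and 3.74 CPM in the controls and 9.15, 9.48 and 7.09 CPM under the ATP6AP1 siRNA label. The groups were well apart. The means were 3.50 ± 0.828 and 8.57 ± 1.30 CPM, a log2 fold change of 1.29 (SE 0.188), or 2.45-fold higher. Its counts were modest, from 48 to 71 in the controls and from 132 to 157 in the others, and 8.51% of the 50-base windows of its exons also occur in transcripts of other genes.

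GATA3 (ENSG00000107485; chromosome 10, 8045378 to 8075198, plus strand), the factor of T helper cells and of mammary and placental epithelium, was close to the limit of detection. The control libraries held 3, 1 and 3 of its counts and those labelled ATP6AP1 siRNA 16, 7 and 10. All labelled libraries were above all controls, at levels below 1 CPM. Summed over each group the counts were 7 and 33, a ratio of 4.79 after scaling, with an exact 95% interval of 2.08 to 12.8 that covers counting error only.

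The make-up of each family was compared per kb of merged exons, to allow for the different lengths of the genes. Merged exons are all annotated exons of a gene. Which transcripts LX-2 cells express was not measured, so levels, shares and ratios between genes depend on this length. The summed level of the 3 coding COUP-TF genes went from 117 ± 11.3 to 42.2 ± 5.10 CPM per kb. NR2F2 made up 81.2% ± 0.690 of that sum in the controls and 67.7% ± 2.63 under the siRNA label. Within the sum, the share of NR2F6 went from 10.1% ± 0.189 to 21.7% ± 2.89, although its own level was no higher, and that of NR2F1 from 8.68% ± 0.504 to 10.6% ± 0.458. Labelled library 3 had the lowest share of NR2F6 in its group, 18.4%, and still lay above all controls.

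The summed level of the 4 GATA genes stood at 22.8 ± 2.45 and 23.4 ± 2.47 CPM per kb, with ranges that overlapped. Its composition differed between the groups. GATA4 went from 30.5% ± 1.37 to 20.8% ± 1.36 of the sum and GATA6 from 4.09% ± 1.26 to 9.63% ± 0.853, while GATA2 went from 65.3% ± 1.29 to 68.8% ± 1.80 and GATA3 was at most 1.11% in any library. The ratio of GATA4 to GATA6 was 5.56, 10.9 and 7.46 in the controls and 2.37, 1.96 and 2.18 under the ATP6AP1 siRNA label. The ratio of NR2F2 to GATA2, the leading gene of each family, went from 6.39 ± 0.322 to 1.77 ± 0.0244. These ratios are taken within a library and do not depend on how libraries were scaled to each other.

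**Figure D2:**
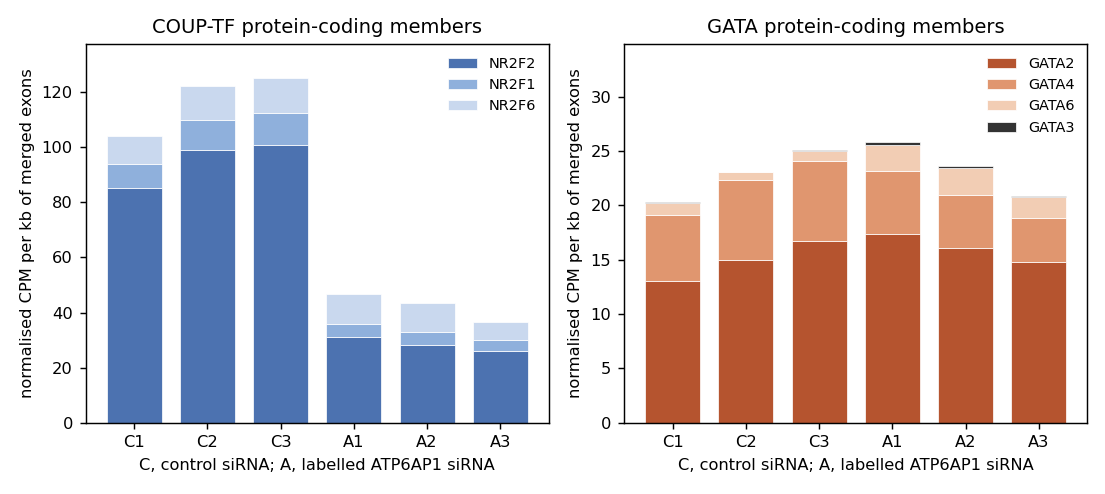
Stacked levels, in normalised CPM per kb of merged exons, of the coding COUP-TF genes (left) and the GATA genes (right) in control libraries C1 to C3 and libraries A1 to A3 labelled ATP6AP1 siRNA. The COUP-TF sum is between 104 and 125 in the controls and between 36.6 and 46.7 in the others, mostly through NR2F2, while the GATA sum overlaps between groups and holds less GATA4 and more GATA6.

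In the controls the order of levels per kb was NR2F2 at 95, GATA2 at 14.9, NR2F6 at 11.9, NR2F1 at 10.2, GATA4 at 6.95, GATA6 at 0.921, NR2F1-AS1 at 0.565 and GATA3 at 0.0401 CPM per kb. NR2F6 and NR2F1 overlapped in range, and the other neighbours in the order did not. NR2F1-AS1, with 22.7 kb of merged exons, stood below GATA6, with 3.8 kb. In CPM it was above GATA6 in the controls, at 12.8 against 3.50. Under the ATP6AP1 siRNA label the order was NR2F2 at 28.5, GATA2 at 16.1, NR2F6 at 9.26, GATA4 at 4.88, NR2F1 at 4.44, GATA6 at 2.26, NR2F1-AS1 at 0.350 and GATA3 at 0.189. GATA4 and NR2F1 had changed places, with ranges that overlapped. Set against the tested protein-coding genes, the mean level per kb of NR2F2 was at percentile 95.1, that of GATA2 at 75.8 and that of GATA6 at 22.3.

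The libraries within a group were not alike for these genes. Control library 1 was the lowest of its group for NR2F1, NR2F2, NR2F6, GATA2 and GATA4, and labelled library 3 was the lowest of its group for the same genes and for GATA6. The longest transcripts of NR2F1, GATA2, GATA4 and GATA6 hold 59.0, 60.4, 59.9 and 55.0% G and C. That of NR2F6 holds 71.2%, against a median of 47.8% over the tested genes. NR2F2, low in the same libraries, is close to that median at 49.8%. Control library 1 and labelled library 3 are those with negative correlations between deviation and GC content given above. The part of GC content in these differences within groups was not tested. The fit with the trend on GC content and transcript length removed compares the groups only. Its log2 fold changes were -1.29 for NR2F1, -1.72 for NR2F2, 0.014 for GATA2 and 1.22 for GATA6.

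Apart from NR2F1-AS1, 2 antisense RNAs of the same loci, which are not among the 8 genes, were tested. NR2F2-AS1, read from the strand opposite NR2F2 without shared exon bases, held 13.3, 15.4 and 14.5 CPM in the controls and 7.27, 7.73 and 7.30 CPM under the ATP6AP1 siRNA label. It fell with a log2 fold change of -0.95 (SE 0.107, edgeR adjusted p = 8.86e-06). NR2F2-AS1 spans 217 kb, and its value was -0.669 with the gene span trend removed. GATA2-AS1, which shares 78 exon bases with GATA2, held 18.9 to 20.7 CPM in the controls and 12.1 to 13.2 CPM in the others. It fell too, with a log2 fold change of -0.66 (edgeR adjusted p = 4.04e-05, SE 0.0888), beside a GATA2 level that overlapped between groups. The ratio of GATA2 to GATA2-AS1 per kb was 1.89 to 2.35 in the controls and 3.55 to 3.82 in the others. GATA6-AS1 had from 1 to 5 counts in each library and was not tested, and GATA3-AS1 was not analysed here.

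The nearest tested coding genes on either side were compared in the same fit. On chromosome 5, FAM172A, 23.1 kb from NR2F1, fell from 28.6 ± 1.07 to 15.7 ± 0.987 CPM (edgeR adjusted p = 2.22e-06, log2 fold change -0.87), and the value was -0.346 with the gene span trend removed. ARRDC3, an arrestin-like gene about 2200 kb away on the other side, rose with a log2 fold change of 0.87 (edgeR adjusted p = 1.21e-05). The neighbours of NR2F2, the chromatin remodeller CHD2 and the arrestin-like ARRDC4, lie 3298 and 1620 kb away and rose by 0.43 and 0.30 on the log2 scale, ARRDC4 without a call once the gene span trend was removed. Neither neighbour thus went the way of NR2F2 itself. Next to NR2F6, OCEL1 did not pass (log2 fold change 0.09) and BABAM1 fell by 0.19 on the log2 scale, a call that was lost in each fit without 1 library except that without labelled library 1.

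Next to GATA4, the DNA glycosylase gene NEIL2, 9.64 kb away, fell from 12.5 ± 0.704 to 8.19 ± 0.767 CPM (edgeR adjusted p = 0.000535, log2 fold change -0.61), and FAM167A did not pass (log2 fold change -0.16). Around GATA6, the DNA repair gene RBBP8 rose with a log2 fold change of 0.46 (edgeR adjusted p = 0.000106) and MIB1, a ubiquitin ligase of Notch ligands, did not pass at -0.14. Around GATA2, EEFSEC rose by 0.29 on the log2 scale, a call lost without labelled library 2 (0.263), and RPN1 did not pass at 0.07. Around GATA3, TAF3 rose by 0.36 and CELF2 fell with a log2 fold change of -0.45, a call lost without control library 3 (-0.370) or labelled library 1 (-0.316). With the gene span trend removed CELF2 turned to 0.101, and RBBP8, EEFSEC and TAF3 stood at 0.753, 0.619 and 0.62. Several of these neighbours were distant. CELF2 lies 2723 kb and TAF3 28.7 kb from GATA3, and RBBP8 596 kb and MIB1 299 kb from GATA6. FAM167A lies 201 kb from GATA4, and RPN1 127 kb and EEFSEC 70.8 kb from GATA2. Neighbours on either side of a locus therefore went the same way in some places and opposite ways in others.

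**Figure D3:**
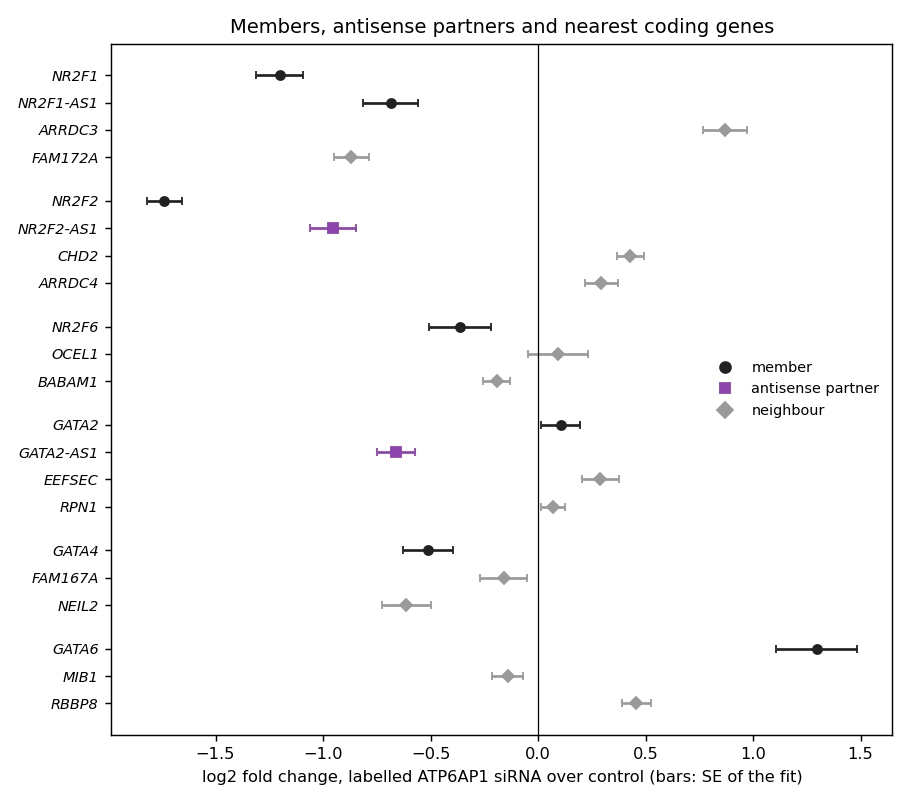
Log2 fold change of the libraries labelled ATP6AP1 siRNA over control (bars, SE of the fit over all 6 libraries) for the tested genes among the 8 (black), their antisense partners (purple) and the nearest tested coding genes (grey), by locus. NR2F2 at -1.74 and NR2F2-AS1 at -0.95 lie left of 0 and the neighbours CHD2 and ARRDC4 right of it, and GATA2-AS1 at -0.66 lies apart from GATA2 at 0.11.

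Relatives of both families were mixed. All lists were written with earlier results of these data known. Their shares past the test are given beside the 53.3% of all genes tested, and nothing is read from them. The share was 50% for the NR2 and retinoid X receptors and 66.7% for the genes with GATA-type zinc fingers. Of 9 other NR2 and retinoid X receptors, 4 were tested: RXRB rose from 41.5 ± 1.01 to 69.8 ± 1.55 CPM (edgeR adjusted p = 6.89e-07, log2 fold change 0.75), RXRA fell from 48.3 ± 3.00 to 37.6 ± 1.86 CPM (edgeR adjusted p = 0.0011, log2 fold change -0.36), and NR2C1 and NR2C2 did not pass. RXRA and RXRB encode the retinoid X receptors with which many nuclear receptors pair. The liver receptor HNF4A averaged 0.0179 and 0.038 CPM. Of 8 other genes with GATA-type zinc fingers 6 were tested, and GATAD1 and ZGLP1 rose, GATAD2A and RERE fell and TRPS1 and GATAD2B did not pass. GATAD1 stood at 44.9 ± 0.658 and 67.9 ± 2.21 CPM (edgeR adjusted p = 4.78e-06, log2 fold change 0.60), and GATAD2A, a subunit of the NuRD repressor complex, at 120 ± 13.4 and 86.6 ± 9.75 CPM (edgeR adjusted p = 0.00084, log2 fold change -0.47). The call of ZGLP1 was lost without control library 3 or labelled library 1 or 2, and that of RERE without library 2 or 3 of either group; RERE turned to 0.27 with the gene span trend removed. GATA5 was near 0.

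Among the cofactors of both families more fell than rose. Of 20 listed cofactors 13 were tested, of which 8 fell, 2 rose and 3 did not pass. Thus 76.9% were past the test, against 53.3% of all genes. The median log2 fold change was -0.42 against -0.00433 over all genes. With library size alone 5 fell and 4 rose. LMO4, an adaptor of GATA complexes, went from 86.1 ± 4.37 to 43.5 ± 2.07 CPM (edgeR adjusted p = 1.34e-07, log2 fold change -0.99). NCOR1, a corepressor of nuclear receptors, fell by 0.42 on the log2 scale (edgeR adjusted p = 5.58e-05), and NSD1, a histone methyltransferase that binds nuclear receptors, by 0.49 (edgeR adjusted p = 5.99e-05). With the gene span trend removed these were -0.175 and -0.281. ZFPM2, the FOG cofactor of GATA4, went from 11.2 ± 1.74 to 5.63 ± 0.461 CPM (edgeR adjusted p = 7.47e-05, log2 fold change -0.99), but stood at -0.195 and did not pass with the gene span trend removed. The 2 that rose, named here after their values were seen, were the acetyltransferase EP300 with a log2 fold change of 0.39 and ZFPM1, the other FOG gene, with 0.70 and groups that overlapped, a call lost without labelled library 1 or 2 or control library 1 or 2.

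Other factors of the stellate and mesenchymal lineage were divided. Of 25 listed, 19 were tested, 7 rose, 8 fell and 4 did not pass, with a median log2 fold change of -0.14. Past the test were 78.9%, against 53.3% of all genes. HLX, a homeobox gene of liver and gut mesenchyme, fell from 22.6 ± 1.42 to 7.78 ± 0.446 CPM (edgeR adjusted p = 7.25e-08, log2 fold change -1.54). ETS1 went from 332 ± 1.52 to 219 ± 8.05 CPM (edgeR adjusted p = 1.24e-06, log2 fold change -0.60). The interferon regulatory factors split, with IRF1 at 32.7 ± 2.55 and 87.4 ± 1.44 CPM (edgeR adjusted p = 1.08e-08, log2 fold change 1.42) and IRF2, which can oppose IRF1, at 16.1 ± 0.279 and 9 ± 1.26 CPM (edgeR adjusted p = 3.59e-05, log2 fold change -0.84).

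Genes known to lie downstream of COUP-TFII in other tissues changed in both directions. Of 22 listed 16 were tested, 8 rose, 7 fell and ANGPT1 did not pass, with a median log2 fold change of -0.04. Past the test were 93.8%, against 53.3% of all genes. TGFB2, a profibrotic growth factor, fell from 42.1 ± 1.99 to 15.2 ± 1.37 CPM (edgeR adjusted p = 3.72e-08, log2 fold change -1.47). CXCL12, a chemokine of mesenchymal cells, went from 96.7 ± 0.741 to 45.5 ± 2.87 CPM (edgeR adjusted p = 4.81e-08, log2 fold change -1.09), and NRP1, a co-receptor of VEGF and semaphorins, from 74.3 ± 2.87 to 33.3 ± 2.17 CPM (edgeR adjusted p = 5.56e-08, log2 fold change -1.16). SNAI1, a factor of mesenchymal transition, rose from 3.82 ± 0.260 to 11.4 ± 0.500 CPM (edgeR adjusted p = 5.16e-07, log2 fold change 1.58).

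Of 22 genes listed as downstream of GATA factors 16 were tested, 8 fell, 2 rose and 6 did not pass, with a median log2 fold change of -0.27. Past the test were 62.5%, against 53.3% of all genes. BMP4, a growth factor, fell from 38.7 ± 2.18 to 14.8 ± 0.924 CPM (edgeR adjusted p = 4.92e-08, log2 fold change -1.39). The basement membrane genes COL4A1 and LAMB1 fell by 1.02 and 0.65 on the log2 scale (edgeR adjusted p = 2.19e-06 and 9.12e-06), and DAB2, an endocytic adaptor, by 0.55 (edgeR adjusted p = 1.2e-05). The 2 that rose, named after their values were seen, were the adhesion gene VCAM1, from 5.39 ± 0.596 to 10.6 ± 1.05 CPM, and the cytokine gene IL1A, from 1.19 ± 0.399 to 2.58 ± 0.817 CPM. Whether any of these genes is bound by a COUP-TF or GATA factor in LX-2 cells was not measured.

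**Figure D4:**
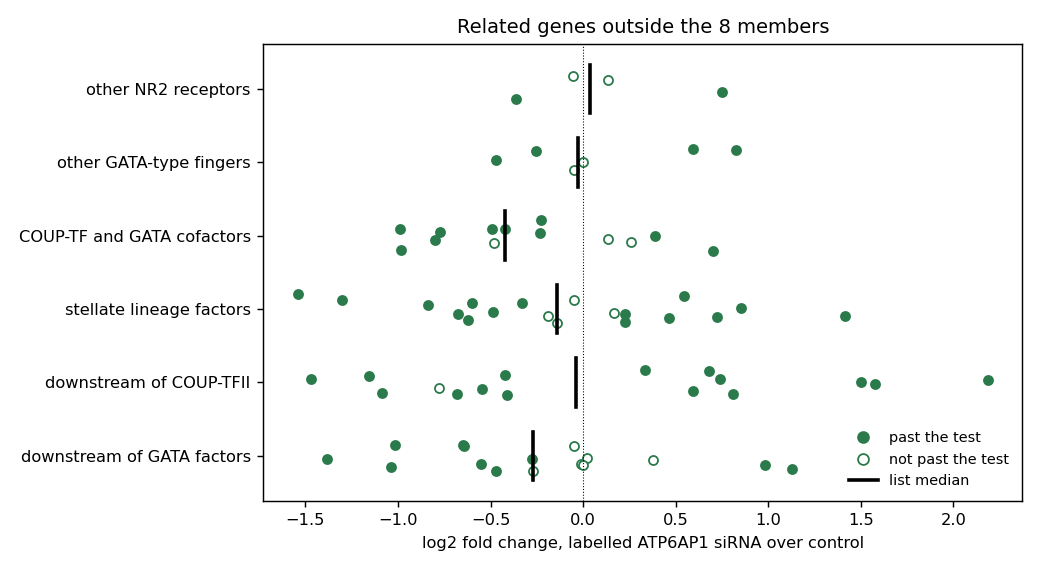
Log2 fold change of each tested gene of 6 lists related to the COUP-TF and GATA genes (filled points past the test, open points not), with a bar at the list median. Genes lie on both sides of 0 in every list, and the cofactor median of -0.42 lies farthest from 0.

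The genes whose levels followed NR2F2 most closely were found by the root mean square difference of mean-centred log2 CPM over the 6 libraries, among 11199 genes with a mean of at least 5 CPM. The nearest were WNT5B at 0.0624, FJX1 at 0.0901, HLX at 0.113, VEGFC at 0.115 and TRERF1 at 0.116. WNT5B encodes a Wnt ligand and went from 80.8 ± 3.99 to 25.9 ± 2.33 CPM, and VEGFC, the growth factor of lymphatic vessels, from 144 ± 9.31 to 42.0 ± 2.40 CPM. The nearest to GATA6 were farther off: NR4A1 at 0.160, ICAM1 at 0.167, ZNF222 at 0.175, PLA2G4C at 0.177 and SHLD1 at 0.178. GATA6 held 48 to 157 counts a library and NR2F2 3044 to 11935, so counting error enters the GATA6 distances more. Its part in the larger distances was not tested. NR4A1, an orphan nuclear receptor that responds early to stimuli, went from 9.80 ± 0.691 to 23.3 ± 2.36 CPM, and the adhesion gene ICAM1 from 59.6 ± 5.03 to 157 ± 8.81 CPM. All profiles share the same 6 libraries and the same difference between groups, so these distances describe likeness and carry no test.

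**Figure D5:**
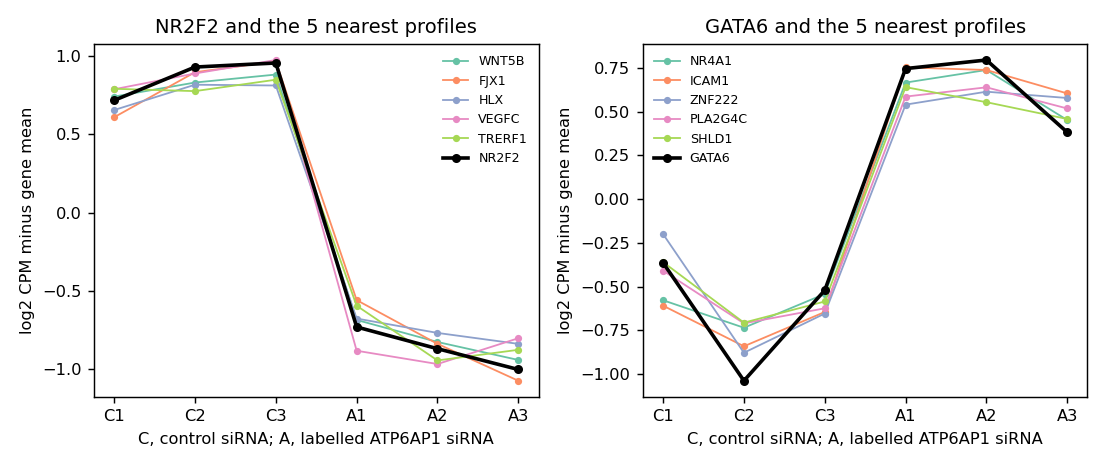
Log2 CPM minus the gene's mean over the 6 libraries for NR2F2 (left) and GATA6 (right), in black, and the 5 genes with the nearest profile to each, in control libraries C1 to C3 and libraries A1 to A3 labelled ATP6AP1 siRNA. The lines only join a gene's points; NR2F2 and its nearest genes are high in all controls, and GATA6 is lower in C2 than its nearest genes.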

How the data were processed

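Poly(A) RNA of the LX-2 line was measured in 3 control libraries and 3 labelled ATP6AP1 siRNA, grouped by their titles. Per the submitters' processing notes, which give neither versions nor roles, the tools were HISAT2, featureCounts, DESeq2, FastQC and Trimmomatic and the genome GRCh38 (hg38). The authors deposited 1 table of estimated counts (expected counts): 12.3 to 13.9% of values per library were not whole, although whole counts had been assumed. No source used here says how such values came from those tools or how reads that map to several genes were treated.

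Values were rounded and compared with edgeR 4.0.16 in R 4.3.3 (filterByExpr, TMM, two-sided quasi-likelihood F test on group, Benjamini-Hochberg over 15372 genes, threshold 0.05). TMM factors were 0.949 to 0.958 in the controls and 1.04 to 1.06 in the others. Total counts were 15644464 to 19656533. The spread between libraries, a biological coefficient of variation of 6.89%, limits the precision of genes with many counts. Counting error also limits genes with fewer, such as GATA6 with 48 to 157 counts a library. The interval of GATA3 covers counting error only. The other intervals and SEs come from the fit and include the spread between libraries. Replicates were no duplicates, since their counts differed beyond sampling noise (chi-square per gene of 3.66 to 9.68). Symbols and coordinates came from GENCODE release 44; 21947 IDs had a symbol, and the others held 0.691 to 0.843% of the counts. Log2 CPM used a prior count of 2.

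The 8 genes and all 12 lists were chosen with earlier results of these data known. Named genes were the 8 genes and ATP6AP1; up to 4 genes a list with the lowest adjusted p (past the test, mean at least 1 CPM); the 2 most abundant markers of each other cell type; tested antisense partners; nearest tested coding neighbours; and the 5 nearest profiles to NR2F2 and to GATA6. Some named markers are given only in their list's sum.

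Alternatives were DESeq2's size factors, library size alone, no filter, 5 CPM in 3 libraries, DESeq2 1.42.0, limma-voom (limma 3.58.1), the replicate number as a block, each library left out, an adjusted p of 0.01, unrounded values, and an offset for the trend on gene span or, chosen after seeing the data, on GC content and transcript length.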

Additional observations from a re-analysis of the deposited data

How the results depend on the processing

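The log2 fold changes of NR2F1, NR2F1-AS1, NR2F2, NR2F6, GATA4 and GATA6 kept their direction under every alternative run, and that of GATA2 did not, with a range from -0.026 to 0.244. With single libraries left out, NR2F2 ran from -1.808 to -1.673, NR2F1 from -1.307 to -1.107, NR2F1-AS1 from -0.805 to -0.581, NR2F6 from -0.483 to -0.175, GATA2 from 0.030 to 0.215, GATA4 from -0.640 to -0.393, GATA6 from 1.121 to 1.457 and ATP6AP1 from 0.231 to 0.314. From 5 to 6 of the 8 genes were then past the test, and 6863 to 8087 of all genes. Since the 8 were chosen on this comparison, nothing is read from their count. NR2F2 was at -1.600 with library size alone and at -1.873 with the gene span trend removed, which also gave -0.395 for NR2F1-AS1, 0.149 and no call for ATP6AP1, and reversed RERE (0.27) and CELF2 (0.101). Library size alone moved the split of all calls from 4110 raised and 4083 lowered to 5618 and 2733, took NR2F6 to -0.224 with no call, and GATA2 past the threshold. The GC trend was removed as a choice made after seeing the data. GATA3 had a value only without a filter, a log2 fold change of 2.200.

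Some counts over lists are small and moved. NR2 relatives raised were 2 with library size alone, either trend removed or labelled library 1 left out (1 to 2 over libraries left out). GATA relatives raised were 3 with the span trend removed, and 1 at 5 CPM and at an adjusted p of 0.01. Those lowered were 1 with library size alone, the block, the span trend removed and 0.01 (each 1 to 2 over libraries left out). Cofactors raised were 4 with library size alone, 3 with no filter, 1 at 0.01 and 1 to 2 over libraries left out. Those lowered were 5 with library size alone and with the span trend removed. Stellate lineage factors raised were 8 with library size alone and 4 at 5 CPM. They were 5 with no filter, DESeq2's own test, the block, the span trend removed and 0.01 (5 to 7 over libraries left out). Downstream GATA genes raised were 1 at 5 CPM. The cause of these moves was not tested, except that the 5 CPM filter tests fewer genes.

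Same-numbered libraries did not deviate together (correlations of -0.0879, -0.0291 and -0.102). This cannot exclude pairing, since libraries 1, and likewise 3, had opposite trends on GC content in the 2 groups. With the replicate block 7195 genes passed in place of 8193. Of the 8 genes 5 passed in place of 6, NR2F6 being lost, as it is with a filter of 5 CPM. Depth limits most GATA3 and GATA6-AS1, whose libraries held at most 16 and 5 counts, and to a lesser degree GATA6, with 48 to 157.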
